A study of Homo sapiens with 22 samples.

Results

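The 45 genes described here encode the parts of the lysosome and of autophagy and the transcription factors that switch many of them on. They were listed by name from pathway membership and not by a cut on their measured values, though with earlier results of these data known. All 45 were found among the 35237 gene symbols of the count table. They comprise 3 transcription factors of the MiT/TFE family, 5 lysosomal membrane proteins, 3 subunits of the vacuolar proton pump (V-ATPase), 9 cathepsins, 6 glycosidases and sulfatases, 4 proteins of lysosomal lipid handling, 5 autophagy receptors and ATG8 proteins, 6 genes of autophagy initiation and nucleation and 4 of ATG8 conjugation. RNA was sequenced in 22 libraries from a pair of established human cell lines of neuroblastoma, SK-N-AS and GIMEN, both placed in the mesenchymal class by the labels. PP121 is a kinase inhibitor of tyrosine kinases and of the phosphoinositide 3-kinase family, mTOR included, and bufalin is a cardiac glycoside that blocks the sodium-potassium pump.

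Untreated SK-N-AS cells grew in DMEM with 10% FBS (n = 4). The group called S1D4 received 5 µM PP121 in DMEM with 1% FBS for 4 days (n = 4). Cells of that kind then moved to Neurobasal medium with B27, 5 µM PP121 and 100 nM bufalin, and were taken after 4 days as S2D4 (n = 4) or after 30 days as S2D30 (n = 4). Untreated GIMEN cells grew in RPMI with 10% FBS (n = 3), and GIMEN D30 cells received 2.5 µM PP121 and 10 nM bufalin in RPMI with 1% FBS for 30 days (n = 3). Drug, serum and, in S2D4 and S2D30, medium changed together, so their contributions cannot be told apart. Nothing in the labels says that replicates came from separate cultures, so p-values measure the spread between these libraries, which may be technical. All 3 SK-N-AS groups were compared with the same 4 untreated libraries.

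Lysosomes digest cargo with acid hydrolases at a low pH kept by the V-ATPase, and autophagy delivers cytoplasm to them in double-membraned vesicles marked by lipid-bound ATG8 proteins. When mTORC1 is active at the lysosome, it keeps TFEB and TFE3 phosphorylated and in the cytoplasm. When mTORC1 is inactive, these factors enter the nucleus and bind the motif TCACGTGA or its core CACGTG in the promoters of lysosomal and autophagy genes, a set known as the CLEAR network. RNA levels report neither the location of these factors nor the rate of digestion.

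Total counts ran from 16456484 to 37506800 per library, and the precision below covers counting and library spread alone. Levels are scaled counts (CPM, relative to library size) under 1 TMM scaling of all 22 libraries, given as mean ± SD over the libraries of a group. Changes are log2 fold changes with their standard error (SE) from edgeR's quasi-likelihood test, and a gene is called at a Benjamini-Hochberg adjusted p under 0.05 over all genes tested. One library stood apart. S2D4 replicate 4 correlated with its own group at a mean of 0.968 across genes, and its 45 genes summed to 9150.2 CPM against 5950 to 6089 in the other 3, so counts of calls are given with and without it, as are single genes where leaving it out changed a printed call or moved a printed change by over 1.5 times. Replicates 1 and 2, and 3 and 4, of untreated and S1D4 cells also deviated together in part, and a fit with a term for that split was run as an alternative. Marker genes also moved with the treatment. In SK-N-AS the summed level of 10 macrophage and other leukocyte markers was 161 to 209 CPM in untreated cells and 6.50 to 8.68 in S2D30, and it followed PTPRC (177 ± 20.9 CPM, then 0.85 ± 0.36 CPM). Other members of that list went the other way at low levels, CSF1R from 0.259 ± 0.166 to 1.69 ± 0.387 CPM and CD14 from 1.34 ± 0.445 to 3.09 ± 0.996 CPM, both called higher, and MSR1 from 0.975 ± 0.169 to 1.65 ± 0.253 CPM, not called. The defining markers AIF1, C1QA, C1QB and TYROBP had at most 4 counts in any library. The sum of 6 mesenchymal markers was 826 to 1340 CPM untreated and 2835 to 3494 CPM in S2D30, most of it VIM (937 ± 243 CPM, then 2860.2 ± 316 CPM). FN1 of that list fell in S2D30, to 1.89 ± 0.417 CPM, and the other 5 rose. In GIMEN the sum was 36908 to 38524 CPM untreated and 19552 to 22248 CPM in D30, with 5 of the 6 lower and YAP1 not called. Of the adrenergic markers, HAND2 fell from 578 ± 19.5 to 143 ± 18.5 CPM, GATA3 from 131 ± 10.3 to 29.6 ± 0.787 CPM and DBH from 76.6 ± 21.7 to 2.36 ± 0.651 CPM in SK-N-AS S2D30. In GIMEN, HAND2 fell from 363 ± 10.2 to 179 ± 16.4 CPM, while GATA3 was at 60.2 ± 3.19 and then 68.7 ± 6.61 CPM. DBH had at most 4 counts in any GIMEN library. Other adrenergic markers are not given, so these genes do not stand for the list. FN1 was at 31481 ± 1048 CPM in untreated GIMEN and at 60.3 ± 18.4 CPM in untreated SK-N-AS, which carries the same mesenchymal label. The sum of 5 melanocyte markers, relevant to MITF, was 61.8 to 71.9 CPM in untreated SK-N-AS and 6.45 to 6.77 CPM in S2D30. It followed TYRP1 (61.6 ± 4.72 CPM, then 3.49 ± 0.671 CPM), and PMEL went from 5.96 ± 0.996 to 2.23 ± 0.507 CPM. MLANA (0.356 ± 0.303, then 0.644 ± 0.112 CPM) and DCT (0.0999 ± 0.0985, then 0.212 ± 0.151 CPM) had higher means in S2D30 at low levels. TYR had no more than 2 counts in any library. The part of these shifts in the results below was not tested, and in bulk RNA fewer cells of a type and less RNA per cell cannot be told apart.

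The motif bound by the MiT/TFE factors can be read in the promoters of these genes. RefSeq promoters (build GRCh38.p14) were matched by symbol for 37 of the 45 genes, giving 48 start sites, and the 250 bases before each start were searched on both strands for CACGTG and for TCACGTGA, which contains it. CACGTG was in 11 of the 48 promoters (22.9%), against 6.34% of all 35116 promoters in the table, 7.4% of the 20581 promoters of genes in the count table and 16.4% of 116 promoters of other lysosome and autophagy genes. TCACGTGA was in 5 of 48 (10.4%), against 0.854%, 1.13% and 5.17% in the same sets. Of the 29 promoters of genes that were higher in S2D30 than in untreated cells, 9 (31%) held CACGTG, and of the 19 promoters of genes not called there, 2 (10.5%) did. The 29 came from 25 genes and the 19 from 12, so some genes count more than once. Genes with several starts and no match were TFEB, MITF, LIPA and ATG5 among those not called, and SQSTM1, NBR1 and NPC2 among those higher. TCACGTGA was in 3 of the 29 (10.3%) and in 2 of the 19 (10.5%). These shares describe letters in a window, and no binding was measured. Shown are 7 of these promoters, which run from repeated motifs to a single one. Capitals mark TCACGTGA where it is whole and CACGTG elsewhere, each run is written 5′ to 3′ on the strand of its gene, and it covers the matches with up to 15 bases on either side. LAMP1 lies at chr13:113297032-113297231 on the plus strand, MCOLN1 at chr19:7522568-7522623 on the plus strand, CLCN7 at chr16:1475035-1475090 on the minus strand, CTSA at chr20:45891278-45891330 on the plus strand, CTSD at chr11:1763954-1763989 on the minus strand, GAA at chr17:80101490-80101570 on the plus strand and ATP6V0D1 at chr16:67481196-67481231 on the minus strand.
LAMP1: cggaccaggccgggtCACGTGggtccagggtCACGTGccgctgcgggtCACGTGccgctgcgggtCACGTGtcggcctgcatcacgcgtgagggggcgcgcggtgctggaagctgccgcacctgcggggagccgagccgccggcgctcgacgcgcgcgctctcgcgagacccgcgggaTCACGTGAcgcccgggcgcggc
MCOLN1: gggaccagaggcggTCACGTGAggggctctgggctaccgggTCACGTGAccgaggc
CLCN7: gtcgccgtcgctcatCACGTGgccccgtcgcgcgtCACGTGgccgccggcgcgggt
CTSA: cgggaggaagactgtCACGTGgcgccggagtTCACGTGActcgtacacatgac
CTSD: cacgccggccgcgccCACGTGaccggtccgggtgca
GAA: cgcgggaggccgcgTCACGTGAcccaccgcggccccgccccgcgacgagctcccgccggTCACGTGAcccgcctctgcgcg
ATP6V0D1: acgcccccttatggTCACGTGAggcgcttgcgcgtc
LAMP1 carried 5 matches, the most of any of the 48. CTSF, NEU1, ATG14 and ATG3 held CACGTG as well, CTSF with 2 matches and the others with 1. No match was found in the window for NPC1, SQSTM1, GABARAPL1 or WIPI1, which were among the genes that rose most.

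Against untreated SK-N-AS, more of the lysosome and autophagy genes were higher than lower in each treated group. All 45 passed the filter on low counts in SK-N-AS. In S1D4, 17 of the 45 were higher and 3 lower, where 17.6% of all genes tested were higher and 22.4% lower, and the median log2 fold change of the 45 was 0.29 (all genes -0.012). S2D4 had 31 higher and 3 lower, beside 30.9% and 32.2% of all genes, with a median of 0.71 (all genes -0.019). In S2D30, 32 were higher and none lower, beside 33.8% and 36.5% of all genes, with a median of 1.16 (all genes -0.034). The 27 lysosomal genes had a median of 1.76 in S2D30 with 20 higher, and the 15 autophagy genes a median of 0.77 with 11 higher. The 13 genes of S2D30 that missed the threshold were TFEB, MITF, ATP6V0D1, ATP6V1H, CTSH, CTSZ, GAA, GLA, LIPA, ULK1, ATG9A, BECN1 and ATG5. Leaving out S2D4 replicate 4, which enters the shared estimate of spread, gave 23 higher and 5 lower in S1D4 (21.8% and 26% of all genes), 29 and 4 in S2D4 (31.2% and 34.3%) and 35 and 2 in S2D30 (35.5% and 38.5%). The calls gained in S1D4 were LAMP2, CLCN7, ATP6AP1, CTSL, GUSB and MAP1LC3B higher, and MITF and CTSH lower. Both genes then lower in S2D30 were MITF at -0.40 (edgeR adjusted p = 0.0337) and CTSH at -0.39 (edgeR adjusted p = 0.0163). One gene, ULK1, was also lower in S2D30 when untreated replicate 1 was left out. 

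**Figure D1:**
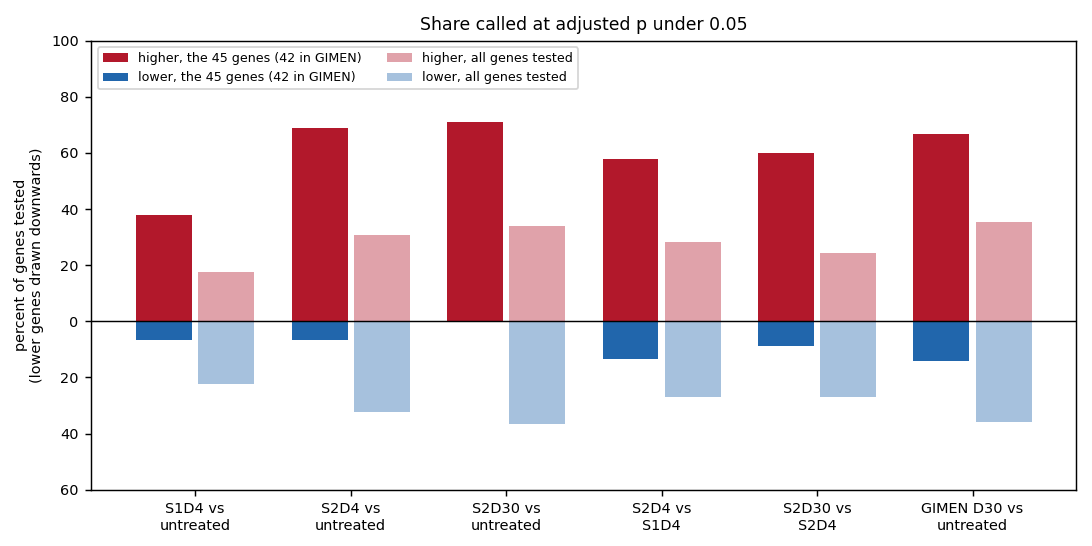
Percent of genes called at an adjusted p under 0.05 in 6 comparisons, with higher genes drawn upward and lower genes downward. Dark bars stand for the lysosome and autophagy genes (45 tested in SK-N-AS, 42 in GIMEN) and pale bars for all genes tested. In S2D30 against untreated cells, 32 of the 45 genes were higher and none lower, beside 33.8% and 36.5% of all genes.

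**Figure D2:**
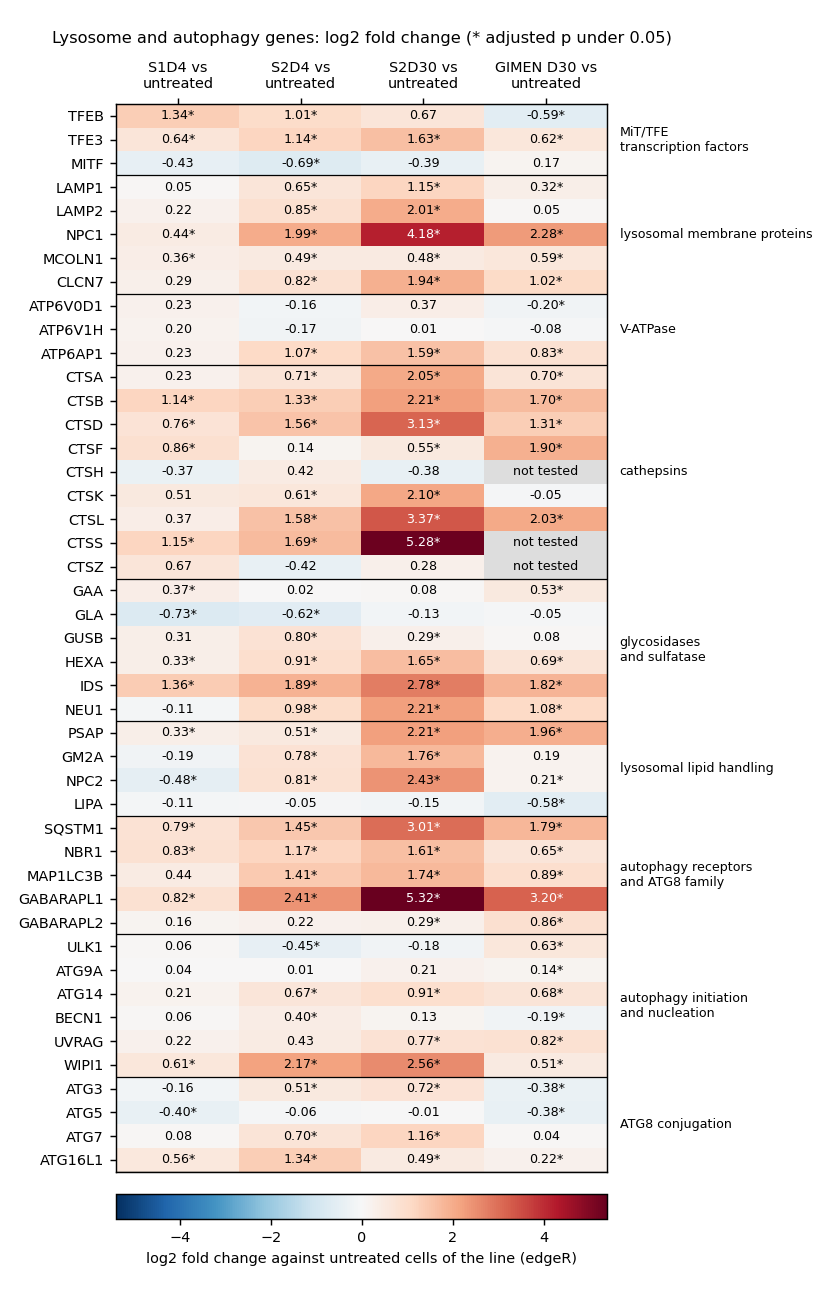
Log2 fold change of each of the 45 genes against the untreated cells of its line (colour and number), grouped by role, with an asterisk at an adjusted p under 0.05. Values in S2D30 run from -0.39 for MITF to 5.32 for GABARAPL1, and grey cells mark the 3 cathepsins that did not pass the filter on low counts in GIMEN.

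The 3 transcription factors behaved differently from each other. TFEB, the best-studied activator of lysosomal genes, measured 5.96, 6.64, 7.63 and 6.26 CPM in the untreated SK-N-AS libraries and 17.7, 20.0, 15.3 and 15.4 CPM in S1D4. It measured 7.91, 7.76, 8.38 and 30.1 CPM in S2D4 and 11.4, 9.98, 10.6 and 11.2 CPM in S2D30. All treated libraries lay above all untreated ones, and S2D4 replicate 4 was the highest of the 16. Against untreated cells the log2 fold change of TFEB was 1.34 (SE 0.34, edgeR adjusted p = 0.00479) in S1D4, 1.01 (SE 0.34, edgeR adjusted p = 0.0158) in S2D4 and 0.67 (SE 0.34, edgeR adjusted p = 0.087) in S2D30. Without S2D4 replicate 4 it was 0.25 (edgeR adjusted p = 0.0885) in S2D4, so that call was lost, and 0.67 (edgeR adjusted p = 4.43e-05) in S2D30, where a call was gained. By group mean TFEB was highest in S1D4, and the step from S1D4 to S2D4, -0.33 (SE 0.33, edgeR adjusted p = 0.411) with all libraries, was -1.10 (edgeR adjusted p = 1.09e-06) without that library.

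TFE3, a close relative that recognises the same motif, rose at every step. Its libraries held 75.3, 77.9, 76.9 and 72.4 CPM untreated, 119, 120.2, 123 and 119 CPM in S1D4, 163, 159.9, 172 and 191 CPM in S2D4 and 246, 234, 228 and 253 CPM in S2D30. No group overlapped the next. The log2 fold changes against untreated cells were 0.64 (SE 0.070, edgeR adjusted p = 3.29e-06), 1.14 (SE 0.071, edgeR adjusted p = 8.36e-10) and 1.63 (SE 0.072, edgeR adjusted p = 6.57e-12) in the order of treatment. MITF, the family member best known from melanocytes, was low, with 5.61, 6.68, 5.96 and 10.0 CPM untreated, 5.58, 4.80, 5.86 and 5.14 CPM in S1D4, 4.98, 5.70, 5.60 and 1.85 CPM in S2D4 and 5.70, 5.68, 5.57 and 5.12 CPM in S2D30. Its groups overlapped, and S2D4 replicate 4 was the lowest of all 16 libraries. MITF fell in S2D4 by the test, at -0.69 (SE 0.27, edgeR adjusted p = 0.0343), but the call was lost without untreated replicate 4, at -0.46 (edgeR adjusted p = 0.147), and with a term for replicates 3 and 4 of untreated and S1D4 cells (edgeR adjusted p = 0.109). Without S2D4 replicate 4 it was -0.42 (edgeR adjusted p = 0.0455), still called.

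All 5 lysosomal membrane proteins rose in S2D4 and in S2D30. NPC1, which exports cholesterol from the lysosome, had the largest change of them. It stood at 30.6, 31.8, 29.1 and 36.3 CPM in untreated libraries and 39.8, 40.2, 45.4 and 50.7 CPM in S1D4, then 122, 118, 131 and 149 CPM in S2D4 and 622, 558, 548 and 642 CPM in S2D30. The 4 groups did not overlap at any step. In S2D30, NPC1 had changed by a log2 value of 4.18 (SE 0.11, edgeR adjusted p = 3.46e-14), 18.1-fold, after 0.44 (SE 0.10, edgeR adjusted p = 0.00244) in S1D4 and 1.99 (SE 0.10, edgeR adjusted p = 1.12e-10) in S2D4. LAMP1 and LAMP2, the abundant glycoproteins that coat the inner face of the membrane, measured 209.6 ± 24.6 and 46.1 ± 4.38 CPM in untreated cells. In S2D30 LAMP1 was at 478 ± 10.3 CPM (log2 fold change 1.15, SE 0.11, edgeR adjusted p = 5.33e-08) and LAMP2 at 190.1 ± 5.16 CPM (log2 fold change 2.01, SE 0.12, edgeR adjusted p = 2.58e-10). Neither was called in S1D4, where the changes were 0.053 and 0.22. CLCN7, a chloride-proton exchanger, rose from 179 ± 14.9 to 702 ± 33.8 CPM in S2D30 (log2 fold change 1.94, SE 0.19, edgeR adjusted p = 8.19e-08). MCOLN1, the lysosomal calcium channel TRPML1, whose promoter holds TCACGTGA at 2 places, rose early and then stayed near that level. Its mean was 46.8 ± 6.02 CPM untreated, 61.0 ± 1.27 in S1D4, 67.2 ± 3.79 in S2D4 and 66.9 ± 5.38 in S2D30, and the last 2 steps were not called (edgeR adjusted p = 0.255 and 0.947).

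Of the 3 V-ATPase genes, ATP6AP1 was the one called against untreated SK-N-AS with all libraries. ATP6AP1, an accessory subunit needed to assemble the pump, was at 124 ± 15.3 CPM untreated and 149 ± 7.07 in S1D4, which was not called (0.23). It then rose to 267 ± 52.1 CPM in S2D4 and 384 ± 2.25 CPM in S2D30, 1.59 (SE 0.12, edgeR adjusted p = 3.27e-09) against untreated. ATP6V0D1, a subunit of the membrane sector with a TCACGTGA in its promoter, had 98.3, 78.4, 93.9 and 63.6 CPM untreated, 106, 110.0, 93.1 and 90.7 CPM in S1D4, 67.4, 67.2, 63.5 and 109 CPM in S2D4 and 112, 110.3, 107 and 112 CPM in S2D30. Its 4 S2D30 libraries lay above all untreated ones, yet the change of 0.37 (SE 0.16, edgeR adjusted p = 0.0513) just missed the threshold. Without S2D4 replicate 4 it was 0.36 (edgeR adjusted p = 0.00791), which passed, while S2D4 was then called lower than untreated cells, at -0.38 (edgeR adjusted p = 0.013) against -0.16 with all libraries. Between groups it fell from S1D4 to S2D4 (log2 fold change -0.39, SE 0.16, edgeR adjusted p = 0.0488) and rose from S2D4 to S2D30 (log2 fold change 0.52, SE 0.16, edgeR adjusted p = 0.0117), and the first of these calls was lost without untreated replicate 2 or 3, S2D4 replicate 1, 2 or 3 or any S1D4 or S2D30 library (edgeR adjusted p up to 0.144). Without S2D4 replicate 4 the first was -0.61 (edgeR adjusted p = 0.000485). ATP6V1H, a regulatory subunit of the cytoplasmic sector, held 59.1, 55.3, 45.5 and 45.04 CPM in S1D4 and 41.5, 41.9, 42.02 and 33.5 CPM in S2D4. That step was -0.38 (SE 0.11, edgeR adjusted p = 0.0108) on the log2 scale without overlap, while against untreated cells its changes were between -0.17 and 0.20 and not called.

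Among the cathepsins, the proteases of the lysosome, 7 of 9 were higher in S2D30 and none lower. CTSS, a cysteine protease best known from antigen-presenting cells, went from barely detected to clearly present. The untreated libraries had 1.56, 1.14, 0.525 and 1.07 CPM, S1D4 3.21, 4.00, 1.22 and 1.64 CPM, S2D4 4.66, 3.04, 3.39 and 3.63 CPM and S2D30 41.3, 48.6, 52.7 and 34.3 CPM. S2D30 lay far above every other group, at 5.28 (SE 0.34, edgeR adjusted p = 6.72e-10), whereas S1D4 overlapped untreated cells and its call at 1.15 (SE 0.34, edgeR adjusted p = 0.0129) was lost without S1D4 replicate 2, at 0.85 (edgeR adjusted p = 0.0595). Of the 10 leukocyte markers, CSF1R and CD14 were also higher in S2D30, PTPRC was lower, MSR1 was not called, AIF1, C1QA, C1QB and TYROBP had at most 4 counts in any library, and ITGAM and LYZ stayed under 0.5 CPM in SK-N-AS. Their part in the CTSS result was not tested. CTSL, a cysteine endoprotease, measured 37.5, 31.9, 28.6 and 23.4 CPM untreated, 107, 111, 105 and 51.6 CPM in S2D4 and 309, 342, 358 and 284 CPM in S2D30, with S2D4 replicate 4 below its group. CTSL rose by 3.37 (SE 0.21, edgeR adjusted p = 3.71e-10) in S2D30. CTSD, the major aspartic protease, climbed at each step, from 229.9 ± 38.3 CPM untreated to 396 ± 15.9 in S1D4, 695 ± 244 in S2D4 and 2073 ± 55.2 in S2D30 (log2 fold change 3.13, SE 0.19, edgeR adjusted p = 2.66e-10 against untreated). Its step from S1D4 to S2D4 was 0.80 with all libraries and, without S2D4 replicate 4, 0.52 (edgeR adjusted p = 0.000588).

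CTSB, another cysteine protease, was among the earliest to respond, with 207, 167, 167 and 147 CPM untreated and 409, 383, 385 and 369 CPM in S1D4, a rise of 1.14 (SE 0.10, edgeR adjusted p = 5.18e-07) without overlap. It stood at 444 ± 33.2 CPM in S2D4 and rose again to 815 ± 65.0 CPM in S2D30 (log2 fold change 2.21, SE 0.11, edgeR adjusted p = 1.81e-11). CTSA, the protective protein of neuraminidase and beta-galactosidase, was at 100.5 ± 15.6 CPM untreated and 427 ± 4.43 CPM in S2D30 (log2 fold change 2.05, SE 0.21, edgeR adjusted p = 1.73e-07). In S2D4 its replicate 4 held 283 CPM and the other libraries 126 to 133, and its change there was 0.71 with and 0.34 (edgeR adjusted p = 0.00658) without that library. CTSK, a collagen-degrading cathepsin of osteoclasts, was low, at 2.40 ± 0.507 CPM untreated and 10.5 ± 1.83 CPM in S2D30 (log2 fold change 2.10, SE 0.26, edgeR adjusted p = 1.49e-06). Its S2D4 call (log2 fold change 0.61, SE 0.26, edgeR adjusted p = 0.0472) was lost without replicate 4, at 0.33 (edgeR adjusted p = 0.228), and without untreated replicate 1, 3 or 4, S2D4 replicate 1 or S2D30 replicate 1, 2 or 4.

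CTSF went up, down and up again. It measured 21.3, 17.6, 20.5 and 17.4 CPM untreated, 34.1, 31.0, 36.5 and 40.0 CPM in S1D4, 17.9, 21.4, 18.9 and 28.1 CPM in S2D4 and 30.0, 26.1, 25.7 and 33.1 CPM in S2D30. The first step was 0.86 (SE 0.14, edgeR adjusted p = 0.000147), the second -0.72 (SE 0.14, edgeR adjusted p = 0.00037) and the third 0.41 (SE 0.14, edgeR adjusted p = 0.0216), and the third call was lost without S2D4 replicate 1 or 3 or S2D30 replicate 1 or 4 (edgeR adjusted p up to 0.0794). CTSH, an aminopeptidase, had 9.56, 11.2, 9.99 and 12.3 CPM in S1D4, 11.7, 11.9, 11.3 and 39.4 CPM in S2D4 and 8.99, 12.8, 11.5 and 9.51 CPM in S2D30. Its rise and later fall, 0.79 (SE 0.32, edgeR adjusted p = 0.0466) and -0.81 (SE 0.32, edgeR adjusted p = 0.0455), rested on S2D4 replicate 4 and were 0.11 (edgeR adjusted p = 0.539) and -0.13 (edgeR adjusted p = 0.478) without it. Both calls were also lost without untreated replicate 1, 2 or 3 or any S1D4 or S2D30 library (edgeR adjusted p up to 0.102 and 0.11). CTSZ stayed under 1.5 CPM in all 16 libraries and was not called against untreated cells. From S1D4 to S2D4 it was called lower (log2 fold change -1.08, SE 0.40, edgeR adjusted p = 0.0276), a call lost without S1D4 replicate 2 or 3 or S2D4 replicate 4 (edgeR adjusted p up to 0.0775). Consecutive steps share the libraries of the group between them.

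IDS, the sulfatase that removes sulfate from heparan and dermatan sulfate, led the glycosidase and sulfatase group. Its libraries measured 115, 118, 111 and 146 CPM untreated, 325, 302, 332 and 327 CPM in S1D4, 441, 422, 425 and 577 CPM in S2D4 and 872, 865, 818 and 896 CPM in S2D30. The groups did not overlap, and the changes against untreated cells were 1.36 (SE 0.10, edgeR adjusted p = 9.53e-08), 1.89 (SE 0.11, edgeR adjusted p = 2.7e-10) and 2.78 (SE 0.11, edgeR adjusted p = 1.85e-12). HEXA, a subunit of the hexosaminidase that breaks down GM2 ganglioside, rose from 66.1 ± 11.6 CPM to 214 ± 12.7 CPM in S2D30 (log2 fold change 1.65, SE 0.11, edgeR adjusted p = 1.48e-09). Its S1D4 call (log2 fold change 0.33, SE 0.11, edgeR adjusted p = 0.028) was lost without untreated replicate 3 or 4 or S1D4 replicate 1, 3 or 4 (edgeR adjusted p up to 0.0825). NEU1, the lysosomal sialidase, was not called in S1D4 (-0.11) and rose from 33.5 ± 4.19 CPM untreated to 159.5 ± 5.32 CPM in S2D30 (log2 fold change 2.21, SE 0.31, edgeR adjusted p = 7.29e-06). Its S2D4 libraries 1 to 3 held 41.5 to 44.2 CPM and replicate 4 held 143 CPM. The S2D4 change of NEU1 was 0.98 (SE 0.30, edgeR adjusted p = 0.00964) with replicate 4 and 0.31 (edgeR adjusted p = 0.00751) without it.

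GLA, the alpha-galactosidase deficient in Fabry disease, fell early. It held 21.4, 17.5, 17.7 and 12.3 CPM untreated and 12.2, 10.9, 9.70 and 9.66 CPM in S1D4, all below the untreated range though narrowly, a change of -0.73 (SE 0.19, edgeR adjusted p = 0.00663). In S2D4 it was also lower (log2 fold change -0.62, SE 0.19, edgeR adjusted p = 0.0107), a call lost without untreated replicate 1, at -0.46 (edgeR adjusted p = 0.0561), and in S2D30 its mean of 16.2 ± 1.90 CPM was not called against untreated. GAA, the acid alpha-glucosidase of glycogen, has TCACGTGA at 2 places in its promoter and moved little. It measured 209, 223, 275 and 262 CPM untreated, 286, 283, 357 and 348 CPM in S1D4, 234, 256, 258 and 257 CPM in S2D4 and 265, 272, 271 and 241 CPM in S2D30. GAA rose in S1D4 (log2 fold change 0.37, SE 0.10, edgeR adjusted p = 0.00713), fell from S1D4 to S2D4 (log2 fold change -0.35, SE 0.10, edgeR adjusted p = 0.00644) and was at 0.078 (SE 0.10, edgeR adjusted p = 0.495) in S2D30, not called. GUSB, the beta-glucuronidase often used as a reference gene, peaked in S2D4, with 64.9, 62.9, 54.2 and 49.3 CPM untreated, 86.1, 99.5, 95.2 and 132 CPM in S2D4 and 68.0, 75.4, 80.3 and 66.8 CPM in S2D30. It rose by 0.80 (SE 0.12, edgeR adjusted p = 2.55e-05) in S2D4 and changed from there to S2D30 by -0.51 (SE 0.12, edgeR adjusted p = 0.00218). Its S2D30 call against untreated cells, 0.29 (SE 0.12, edgeR adjusted p = 0.0415), was lost without untreated replicate 3 or 4, any S1D4 library, S2D4 replicate 2 or S2D30 replicate 2 or 3 (edgeR adjusted p up to 0.119).

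In lysosomal lipid handling, 3 of 4 genes rose in S2D30 and LIPA did not. PSAP, the precursor of the saposins that present sphingolipids to their enzymes, was at 513 ± 59.6 CPM untreated, 658 ± 37.7 in S1D4, 751 ± 156 in S2D4 and 2429 ± 123 in S2D30. Most of its change came from S2D4 to S2D30, 1.69 (SE 0.13, edgeR adjusted p = 1.85e-08) on the log2 scale, and its S1D4 call (log2 fold change 0.33, SE 0.12, edgeR adjusted p = 0.042) was lost without untreated replicate 2, 3 or 4 or any S1D4 or S2D30 library (edgeR adjusted p up to 0.105). NPC2, the soluble partner that hands cholesterol to NPC1, went down and then up. Its libraries held 118, 89.9, 85.9 and 53.1 CPM untreated, 68.9, 58.7, 62.4 and 64.7 CPM in S1D4, 142, 142, 141 and 199 CPM in S2D4 and 484, 453, 513 and 477 CPM in S2D30. The S1D4 libraries overlapped the untreated ones, and the call there, -0.48 (SE 0.18, edgeR adjusted p = 0.0421), was lost without untreated replicate 1, 2 or 3 or any S1D4 or S2D30 library (edgeR adjusted p up to 0.231). From S1D4 it rose by 1.28 (SE 0.18, edgeR adjusted p = 1.65e-05) to S2D4, and against untreated cells it stood at 2.43 (SE 0.19, edgeR adjusted p = 4.86e-09) in S2D30. GM2A, the activator protein for GM2 ganglioside, rose from 22.1 ± 0.915 CPM untreated to 76.9 ± 7.24 CPM in S2D30 (log2 fold change 1.76, SE 0.11, edgeR adjusted p = 3.27e-10). LIPA, the acid lipase for cholesteryl esters, stayed between 22.2 and 37.98 CPM in all 16 libraries and was called in none of the SK-N-AS comparisons with all libraries. Without S2D4 replicate 4 its step from S2D4 to S2D30 was called lower, at -0.25 (edgeR adjusted p = 0.0375).

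All 5 autophagy receptors and ATG8 proteins were higher in S2D30. GABARAPL1, an ATG8 protein that coats autophagic membranes, changed most of all 45 genes. It measured 2.47, 2.36, 2.67 and 1.80 CPM untreated and 4.58, 2.78, 4.64 and 4.57 CPM in S1D4, then 11.3, 13.1, 13.3 and 12.8 CPM in S2D4 and 94.5, 94.1, 99.8 and 90.8 CPM in S2D30. No group overlapped the next, and the changes against untreated cells were 0.82 (SE 0.16, edgeR adjusted p = 0.000602), 2.41 (SE 0.15, edgeR adjusted p = 1.02e-09) and 5.32 (SE 0.16, edgeR adjusted p = 1.14e-13), the last one 39.9-fold. SQSTM1, the p62 receptor that carries ubiquitinated cargo and is itself digested with it, went from 279 ± 35.6 CPM to 2301 ± 176 CPM in S2D30 (log2 fold change 3.01, SE 0.29, edgeR adjusted p = 9.66e-08). In S2D4 it read 507, 537, 534 and 1559.6 CPM, with replicate 4 between its own group and S2D30. The step from S1D4 to S2D4 was 0.66 (SE 0.27, edgeR adjusted p = 0.0499) with replicate 4 and 0.085 (edgeR adjusted p = 0.478) without it, and the call was also lost without untreated replicate 1, 2 or 3 or any S1D4 or S2D30 library. The S1D4 call of SQSTM1 (log2 fold change 0.79, SE 0.27, edgeR adjusted p = 0.0286) was lost without untreated replicate 3 or 4 or S1D4 replicate 1, 2 or 4 (edgeR adjusted p up to 0.0638), and passed without S2D4 replicate 4 at 0.79 (edgeR adjusted p = 3.02e-06). NBR1, a receptor related to SQSTM1, rose from 87.2 ± 16.8 CPM untreated to 158 ± 13.3 in S1D4 and 272 ± 9.53 in S2D30 (log2 fold change 1.61, SE 0.13, edgeR adjusted p = 1.46e-08). MAP1LC3B, the LC3 protein most used as an autophagosome marker, was not called in S1D4 (0.44) and rose to 133 ± 6.32 CPM in S2D30 from 38.6 ± 5.75 CPM (log2 fold change 1.74, SE 0.19, edgeR adjusted p = 4.12e-07). GABARAPL2, the third ATG8 gene here, changed by 0.29 (SE 0.10, edgeR adjusted p = 0.0173) in S2D30, a call lost without untreated replicate 2 or S2D30 replicate 3 (edgeR adjusted p up to 0.0572).

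Genes that start autophagy and nucleate its membrane were split, with WIPI1 well above the rest. WIPI1, which reads phosphatidylinositol 3-phosphate on the growing membrane, held 14.5, 14.99, 14.3 and 16.4 CPM untreated, 23.9, 21.0, 25.9 and 22.8 CPM in S1D4, 69.8, 75.1, 67.9 and 64.7 CPM in S2D4 and 85.0, 94.4, 101 and 81.4 CPM in S2D30. Its largest step was the one from S1D4 to S2D4, 1.56 (SE 0.089, edgeR adjusted p = 9.54e-10) on the log2 scale, and it stood at 2.56 (SE 0.092, edgeR adjusted p = 8.11e-13) in S2D30 against untreated cells. ATG14, a subunit of the lipid kinase complex that makes that phosphoinositide, rose from 23.1 ± 3.44 to 44.5 ± 1.60 CPM in S2D30 (log2 fold change 0.91, SE 0.11, edgeR adjusted p = 8.25e-07), and UVRAG, the alternative subunit, from 9.85 ± 1.00 to 17.2 ± 1.59 CPM (log2 fold change 0.77, SE 0.20, edgeR adjusted p = 0.00225). ULK1, the kinase at the top of the pathway, was lower in S2D4 than in S1D4. Its libraries read 119, 153, 181 and 197 CPM untreated, 151, 177, 186 and 172 CPM in S1D4, 111, 108, 118 and 149 CPM in S2D4 and 145, 149.9, 145 and 148 CPM in S2D30. It fell by 0.51 (SE 0.13, edgeR adjusted p = 0.0035) from S1D4 to S2D4 without overlap, although S2D4 and untreated libraries overlapped. Against untreated cells its S2D4 change was -0.45 (SE 0.13, edgeR adjusted p = 0.00627), a call lost with the same term, at -0.29 (edgeR adjusted p = 0.0512). BECN1, the core subunit of the same kinase complex, measured 57.8, 58.2, 64.5 and 56.9 CPM untreated, 79.9, 83.2, 83.1 and 73.9 CPM in S2D4 and 64.9, 64.9, 71.9 and 65.3 CPM in S2D30. It rose in S2D4 (log2 fold change 0.40, SE 0.071, edgeR adjusted p = 0.000133), fell by 0.26 (SE 0.071, edgeR adjusted p = 0.00538) to S2D30 and was then at 0.13 against untreated, not called. ATG9A, the membrane-carrying scramblase, showed changes between 0.0052 and 0.21, none of them called with all libraries.

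The 4 genes of ATG8 conjugation encode the machinery that attaches ATG8 proteins to lipid. By group mean ATG16L1 was highest in S2D4, and ATG3, ATG5 and ATG7 in S2D30. There ATG5 was at -0.0056 against untreated cells, not called. ATG16L1, which places the conjugation machinery on the membrane, measured 51.4, 49.2, 50.5 and 50.3 CPM untreated, 70.7, 66.9, 84.9 and 79.7 CPM in S1D4, 127, 123, 123 and 149.6 CPM in S2D4 and 73.2, 67.3, 74.2 and 74.9 CPM in S2D30. It rose by 0.78 (SE 0.086, edgeR adjusted p = 1.33e-06) into S2D4 and fell by 0.85 (SE 0.086, edgeR adjusted p = 5.7e-07) after it, both without overlap, and stayed above untreated at 0.49 (SE 0.086, edgeR adjusted p = 8.7e-05). ATG3, the last enzyme of the cascade, had 43.9, 42.8, 42.5 and 38.9 CPM untreated, 42.01, 39.2, 35.5 and 37.0 CPM in S1D4, 63.0, 64.7, 61.8 and 55.4 CPM in S2D4 and 71.8, 68.6, 77.3 and 66.2 CPM in S2D30. It was not called in S1D4 (log2 fold change -0.16, SE 0.082, edgeR adjusted p = 0.146) and higher in S2D4 (log2 fold change 0.51, SE 0.082, edgeR adjusted p = 4.58e-05) and S2D30 (log2 fold change 0.72, SE 0.082, edgeR adjusted p = 6.5e-07). ATG7, the activating enzyme, rose from 12.9 ± 1.18 CPM to 21.4 ± 1.06 in S2D4 and 29.5 ± 2.10 in S2D30 (log2 fold change 1.16, SE 0.10, edgeR adjusted p = 1.85e-08). ATG5, which forms the ligase with ATG12 and ATG16L1, dipped in S1D4. It held 28.97, 24.1, 28.9 and 22.5 CPM untreated, 21.1, 19.8, 19.7 and 19.9 CPM in S1D4 and 27.9, 26.6, 24.5 and 23.9 CPM in S2D4, and its steps were -0.40 (SE 0.10, edgeR adjusted p = 0.00584) and then 0.34 (SE 0.11, edgeR adjusted p = 0.011) on the log2 scale, with the second call lost under upper-quartile scaling (0.25, edgeR adjusted p = 0.0653).

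**Figure D3:**
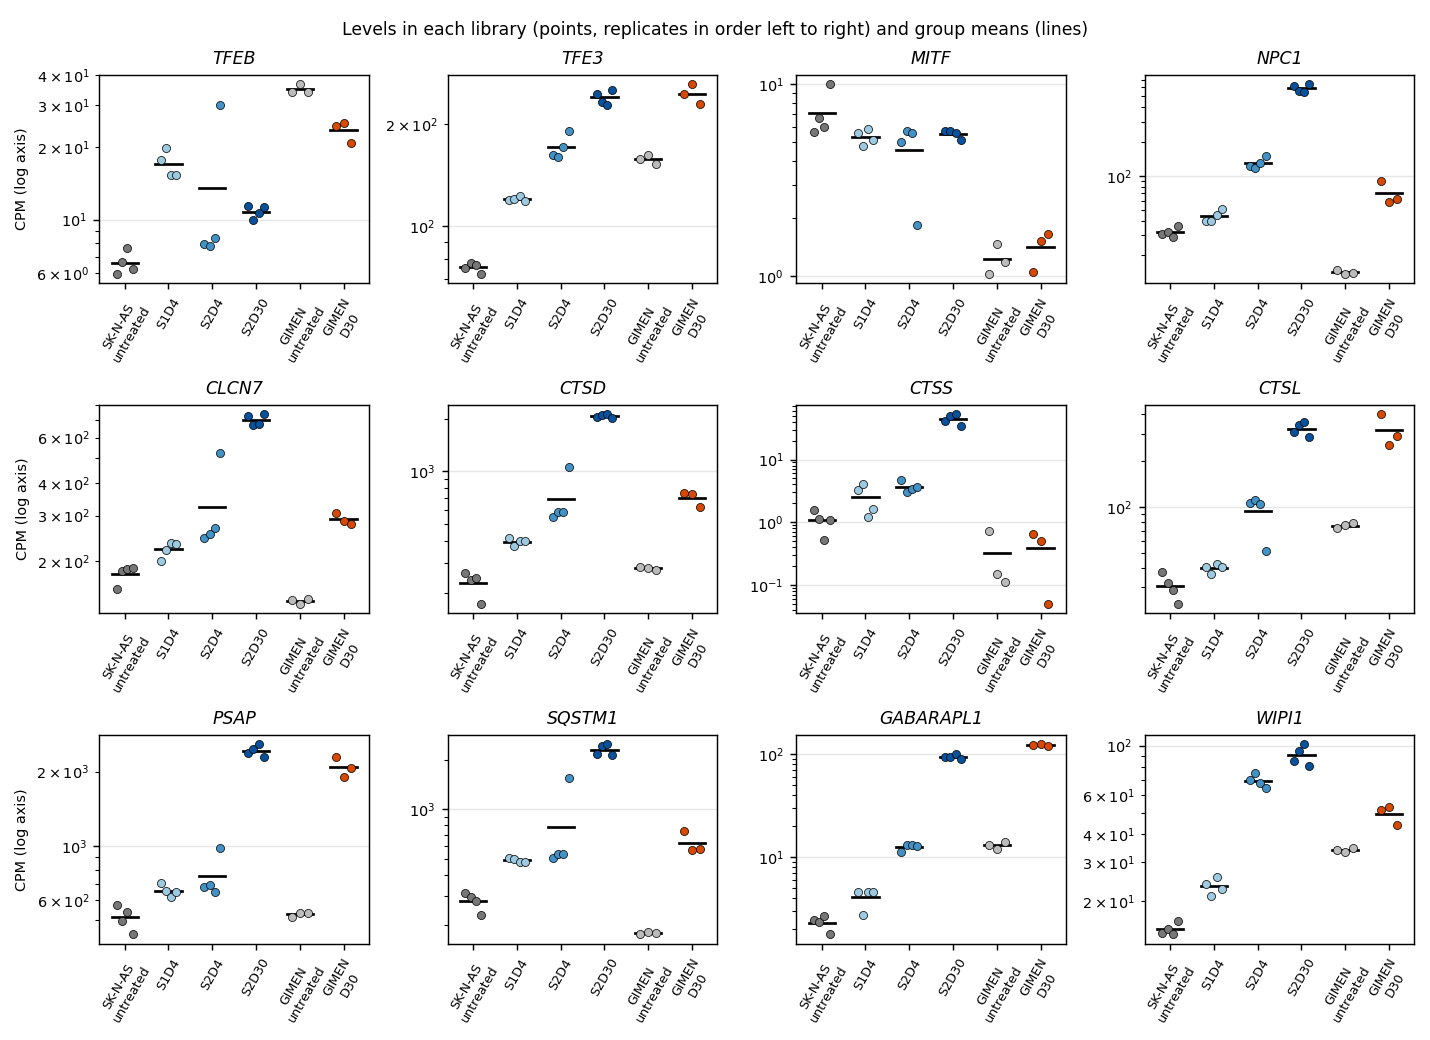
CPM of 12 genes in each of the 22 libraries on log axes, 1 panel a gene, with points for libraries and lines for group means. NPC1, GABARAPL1 and TFE3 climb from group to group in SK-N-AS, S2D4 replicate 4 stands far above its group for TFEB and SQSTM1, and the GIMEN D30 library with no CTSS count is drawn at 0.05 CPM.

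The consecutive steps show where the change lay. From S1D4 to S2D4, when bufalin and the new medium came in, 26 of the 45 genes were higher and 6 lower, beside 28.3% and 26.8% of all genes, with a median log2 fold change of 0.49 (all genes 0.018). Genes are ranked here if they were above the level set for naming and their groups did not overlap. WIPI1 (1.56), NPC1 (1.55) and NPC2 (1.28) then rose most, and CTSF (-0.72), ULK1 (-0.51) and ATP6V1H (-0.38) fell most. ATP6V0D1, whose groups overlapped, was called lower at -0.39. From S2D4 to S2D30, with the same drugs and medium for longer, 27 were higher and 4 lower, beside 24.4% and 26.9% of all genes, again with a median of 0.49 (all genes -0.018). By the same rule CTSS (3.58), GABARAPL1 (2.91) and NPC1 (2.19) rose most, and ATG16L1 (-0.85), GUSB (-0.51) and BECN1 (-0.26) fell most. CTSH, whose groups overlapped, was called lower at -0.81, a call that rested on S2D4 replicate 4. By function, 20 of the 27 lysosomal genes rose in this second step, with a median of 0.88, and 6 of the 15 autophagy genes, with a median of 0.27. The difference between lysosomal and autophagy genes was not tested, and these counts include S2D4 replicate 4. Without that library, MAP1LC3B, ULK1, ATG9A and UVRAG of the autophagy genes were also called higher in this step, and ATG3 was not. No lysosomal gene gained or lost a higher call, so the contrast was smaller. Without S2D4 replicate 4 the first step had 23 higher and 7 lower (28.9% and 29.3% of all genes) with a median of 0.35, and the second 31 higher and 4 lower (26.5% and 27.2%) with a median of 0.59. TFEB, MAP1LC3B, ULK1, ATG9A and UVRAG were then called higher in the second step, and TFEB and ATG9A lower in the first. Leaving out that library also ended the call of NBR1 in the first step, at 0.18 (edgeR adjusted p = 0.157), which S1D4 replicates 1 and 2 also decided (edgeR adjusted p up to 0.103). The call of ATG3 in the second step was 0.16 (edgeR adjusted p = 0.0911) without it and was lost as well without S2D4 replicate 1 or 3 or S2D30 replicate 1, 2 or 3 (edgeR adjusted p up to 0.124).

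S2D4 replicate 4 differed from the other 3 libraries of its group across these genes. It was above all 3 for 29 genes, below all 3 for 12 and within their range for 4, with a median log2 ratio to their mean of 0.34. The same was not counted over all genes, so these numbers cannot be called particular to this set. TFEB was the farthest above, at 30.1 CPM against 7.76 to 8.38 CPM, followed by CTSH (39.4 against 11.3 to 11.9), NEU1 (143 against 41.5 to 44.2) and SQSTM1 (1559.6 against 507 to 537). MITF, CTSZ, CTSL and LIPA were the lowest against the others, with CTSL at 51.6 CPM against 105 to 111. The library was above for some genes that rose later, such as SQSTM1, and below for others, such as CTSL. It was within the range of the others for GABARAPL1, and NPC1 there was 149 CPM against 118 to 131.

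**Figure D4:**
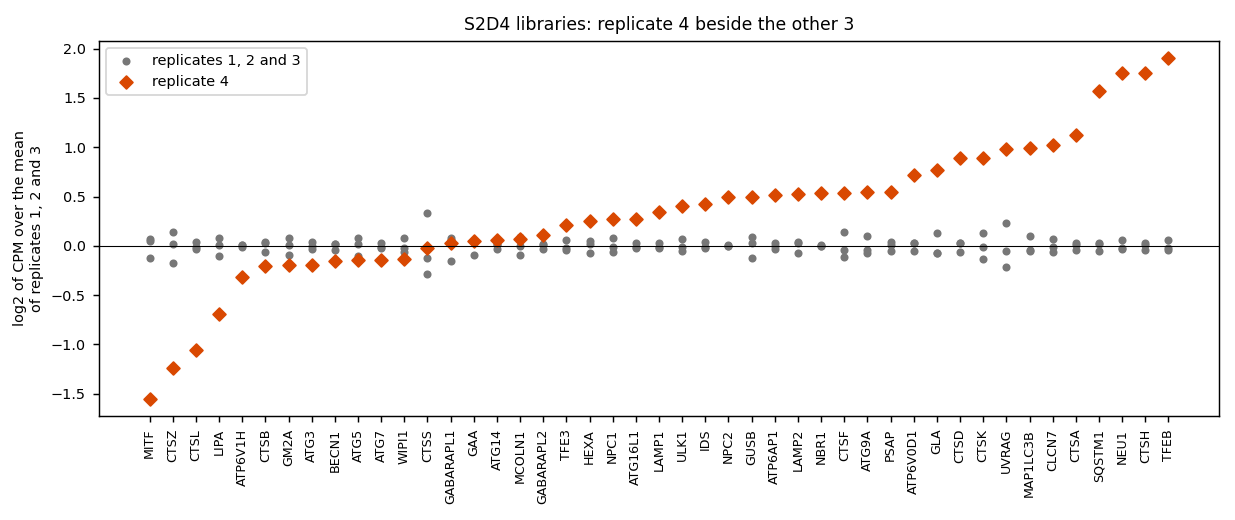
Log2 ratio of each S2D4 library to the mean CPM of replicates 1, 2 and 3, for all 45 genes in order of replicate 4 (orange diamonds), with the other 3 libraries as grey points. Replicate 4 lies above the other 3 for 29 genes, TFEB at the far right, and below them for 12, MITF at the far left.

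GIMEN cells showed the same direction for most of these genes after 30 days. Of the 42 genes tested, 28 were higher and 6 lower, beside 35.5% and 36% of all 13517 genes tested there, and the median log2 fold change was 0.60 (all genes 0.016). CTSH, CTSS and CTSZ did not pass the filter on low counts in this line. GABARAPL1 again rose most, with 13.2, 12.1 and 14.1 CPM untreated and 123, 125 and 119.6 CPM in D30 (log2 fold change 3.20, SE 0.072, edgeR adjusted p = 2.01e-11, 9.16-fold). NPC1 went from 14.9, 13.7 and 13.9 CPM to 89.2, 59.1 and 62.7 CPM (log2 fold change 2.28, SE 0.14, edgeR adjusted p = 7.3e-08), and CTSL from 72.5, 75.8 and 78.2 CPM to 401, 254 and 287 CPM (log2 fold change 2.03, SE 0.14, edgeR adjusted p = 1.44e-07). For both genes D30 replicate 1 was the highest library, and neither group overlapped its control. PSAP (1.96), CTSF (1.90), IDS (1.82), SQSTM1 (1.79), CTSB (1.70) and CTSD (1.31) followed, all with adjusted p at or below 4.34e-08. TFE3 rose from 158, 163 and 153 CPM to 246, 263 and 230.4 CPM (log2 fold change 0.62, SE 0.064, edgeR adjusted p = 4.78e-06).

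TFEB fell in GIMEN D30. In SK-N-AS S2D30 it was at 0.67, not called with all libraries and called higher without S2D4 replicate 4. Its GIMEN libraries read 34.0, 36.7 and 33.9 CPM untreated and 24.6, 25.3 and 20.9 CPM in D30, without overlap (log2 fold change -0.59, SE 0.087, edgeR adjusted p = 8.48e-05). LIPA went from 42.6, 41.4 and 39.8 CPM to 28.5, 28.5 and 27.5 CPM (log2 fold change -0.58, SE 0.068, edgeR adjusted p = 1.38e-05). ATG5 went from 30.7, 31.1 and 34.6 CPM to 23.1, 21.6 and 30.6 CPM (log2 fold change -0.38, SE 0.12, edgeR adjusted p = 0.0148), a call lost without untreated replicate 3, at -0.33 (edgeR adjusted p = 0.0615), or D30 replicate 2, at -0.29 (edgeR adjusted p = 0.0658). ATG3 (log2 fold change -0.38, SE 0.082, edgeR adjusted p = 0.00163) and ATP6V0D1 (log2 fold change -0.20, SE 0.055, edgeR adjusted p = 0.0062) were lower too, as was BECN1 (log2 fold change -0.19, SE 0.063, edgeR adjusted p = 0.0198), whose call was lost without untreated replicate 2 or 3 or D30 replicate 1 (edgeR adjusted p up to 0.0742). ATG9A (0.14) was called higher but lost the call without any library but D30 replicate 3, NPC2 (0.21) without untreated replicate 1 or 3, and ATG16L1 (0.22) without untreated replicate 3, where their adjusted p reached 0.23, 0.0764 and 0.076. MITF stayed under 2 CPM in all 6 libraries and was not called.

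Set side by side, 25 of the 32 genes higher in SK-N-AS S2D30 were among the 28 higher in GIMEN D30. Of all genes tested, 33.8% were higher in S2D30 and 35.5% in GIMEN D30. The overlap over all genes was not counted, so the 25 cannot be called particular to this set. One gene had opposite calls. ATG3 was higher in SK-N-AS (0.72) and lower in GIMEN, where its libraries read 43.4, 43.0 and 41.6 CPM untreated and 32.9, 30.5 and 37.1 CPM in D30. LAMP2, CTSK, GUSB, GM2A and ATG7 were higher in SK-N-AS and not called in GIMEN, and CTSS was not tested there. GAA, ULK1 and ATG9A were higher in GIMEN and not called in SK-N-AS. TFEB, ATP6V0D1, LIPA, BECN1 and ATG5 were lower in GIMEN and not called in SK-N-AS, MITF, ATP6V1H and GLA were called in neither, and CTSH and CTSZ were not called in SK-N-AS and not tested in GIMEN.

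An interaction term, fitted in 14 libraries, tested whether the 30-day changes of SK-N-AS and GIMEN differed. Doses, medium, serum and schedule differed between the lines, so the test compares both protocols in their lines. S2D30 followed a stage of PP121 without bufalin, and the labels give no such stage for GIMEN. The signed log2 change was higher in SK-N-AS for 28 genes and lower for 4, beside 24.5% and 25.2% of all 16246 genes tested. The median difference was 0.82 (all genes -0.021). A higher signed change is not always a larger one. TFEB, ATP6V0D1, LIPA and BECN1, among the 28, were called lower in GIMEN and not called in SK-N-AS. WIPI1 differed by 2.03 (SE 0.13, edgeR adjusted p = 1.62e-09) between its changes of 2.56 in SK-N-AS and 0.51 in GIMEN. NPC2 differed by 2.20 (SE 0.25, edgeR adjusted p = 2.13e-06), GABARAPL1 by 2.11 (SE 0.15, edgeR adjusted p = 6.8e-09), LAMP2 by 1.95 (SE 0.11, edgeR adjusted p = 7.1e-10), NPC1 by 1.88 (SE 0.18, edgeR adjusted p = 1.99e-07) and CTSD by 1.80 (SE 0.18, edgeR adjusted p = 3.34e-07). For TFEB the difference was 1.25 (SE 0.15, edgeR adjusted p = 3.81e-06) and for TFE3 1.00 (SE 0.11, edgeR adjusted p = 7.35e-07). CTSF (log2 difference -1.38, SE 0.17, edgeR adjusted p = 5.28e-06), ULK1 (log2 difference -0.82, SE 0.16, edgeR adjusted p = 0.000529), GABARAPL2 (log2 difference -0.60, SE 0.15, edgeR adjusted p = 0.0041) and GAA (log2 difference -0.47, SE 0.13, edgeR adjusted p = 0.00644) were the 4 with the lower signed change in SK-N-AS. For PSAP the difference was not called, at 0.22 (SE 0.15, edgeR adjusted p = 0.247). The CTSB difference of 0.49 (SE 0.18, edgeR adjusted p = 0.0312) was lost without replicate 2 or 3 of any of the 4 groups (edgeR adjusted p up to 0.0783), and that of BECN1 (log2 difference 0.30, SE 0.11, edgeR adjusted p = 0.0282) without S2D30 replicate 3, untreated GIMEN replicate 2 or D30 replicate 1 (edgeR adjusted p up to 0.0632).

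**Figure D5:**
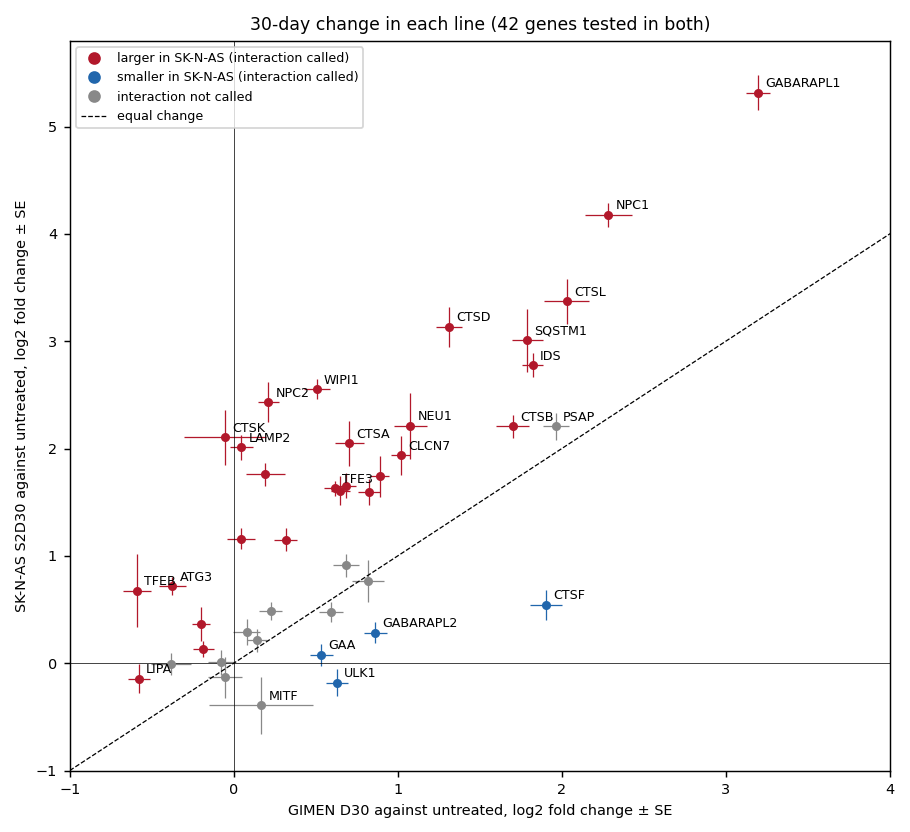
Log2 fold change after 30 days in SK-N-AS (S2D30, vertical axis) against GIMEN (D30, horizontal axis) for the 42 genes tested in both, with SE bars and the line of equal change dashed. In the interaction test, red genes had a higher signed change in SK-N-AS than in GIMEN and blue genes a lower one. GABARAPL1 lies highest at 5.32 and 3.20.

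The untreated lines already differed in these genes. SK-N-AS was higher than GIMEN for 14 and lower for 24, beside 38.6% and 35.3% of all genes, with a median log2 difference of -0.30 (all genes 0.051). LAMP2 read 41.5, 44.3, 46.5 and 51.9 CPM in untreated SK-N-AS and 343, 333 and 327 CPM in untreated GIMEN (log2 difference -2.88, SE 0.082, edgeR adjusted p = 8.25e-15). TFEB (-2.42), GABARAPL1 (-2.52) and CTSB (-2.41) were lower in SK-N-AS as well. NPC1 (1.16), ULK1 (0.99) and MCOLN1 were higher, MCOLN1 with 49.3, 46.4, 52.8 and 38.6 CPM against 26.8, 25.1 and 27.7 CPM (log2 difference 0.80, SE 0.11, edgeR adjusted p = 5.31e-06). After 30 days the summed level of the 45 genes was 14728 ± 402 CPM in SK-N-AS and 12443 ± 1021 CPM in GIMEN, from 3587 ± 223 and 5467 ± 44.1 CPM untreated. The line, its medium and its library set cannot be told apart in this comparison.

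A further 109 lysosome and autophagy genes, written as 6 lists, give the surroundings of the 45. In S2D30 against untreated SK-N-AS, 73 of them were higher (67%) and 14 lower (12.8%), beside 33.8% and 36.5% of all genes. Their median log2 fold change was 0.67. S1D4 had 27 higher (24.8%) and 10 lower (9.17%), beside 17.6% and 22.4% of all genes. S2D4 had 54 (49.5%) and 18 (16.5%), beside 30.9% and 32.2%. GIMEN D30 had 70 (68%) and 13 (12.6%) of 103 tested, beside 35.5% and 36%. Each list below has to be read against the same shares of all genes. Among 15 other V-ATPase subunits, 12 rose and 2 fell in S2D30, with ATP6V1B2 from 63.5 ± 2.92 to 314 ± 11.4 CPM (log2 fold change 2.27, SE 0.12, edgeR adjusted p = 5.47e-11) and ATP6V0E2 at -1.59 (SE 0.21, edgeR adjusted p = 4.66e-06). Of 28 other hydrolases, 20 rose and 2 fell, led by TPP1, a tripeptidyl peptidase, from 60.4 ± 3.09 to 921 ± 53.7 CPM (log2 fold change 3.89, SE 0.084, edgeR adjusted p = 2.77e-15). CTSV, a cathepsin close to CTSL, fell from 9.41 ± 2.02 to 0.395 ± 0.173 CPM (log2 fold change -4.58, SE 0.46, edgeR adjusted p = 1.47e-07). Of 15 other membrane proteins, 12 rose and 3 fell, with CD63 at 2.64 (SE 0.13, edgeR adjusted p = 2.58e-11) and LAMP3, at about 1 CPM in untreated cells, at -2.19 (SE 0.39, edgeR adjusted p = 9.08e-05).

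Enzyme sorting, the route that tags hydrolases for the lysosome, had 8 of 9 genes higher and 1 lower in S2D30. Of all genes tested, 33.8% were higher and 36.5% lower there. CLN8, an export receptor for lysosomal enzymes, rose from 18.3 ± 3.90 to 51.7 ± 2.37 CPM (log2 fold change 1.46, SE 0.15, edgeR adjusted p = 1.67e-07), and its partner CLN6 fell from 52.0 ± 4.59 to 22.8 ± 1.90 CPM (log2 fold change -1.23, SE 0.18, edgeR adjusted p = 1.28e-05). The same pair moved apart in GIMEN, at 1.39 and -1.96. Of 12 genes that dock mTORC1 at the lysosome or belong to the folliculin complex, 0 rose and 3 fell in S1D4. All genes tested had 17.6% higher and 22.4% lower in S1D4. In S2D30, 7 of the 12 rose and 2 fell. FNIP1, a folliculin partner, rose from 19.2 ± 1.32 to 165 ± 16.6 CPM (log2 fold change 3.07, SE 0.17, edgeR adjusted p = 9.51e-11), and LAMTOR2 of the docking scaffold fell by 0.52 (SE 0.10, edgeR adjusted p = 0.00017). Of the 30 other autophagy genes, 20% were higher in S1D4, near the share of all genes. In S2D30, 14 of them (46.7%) were higher and 4 (13.3%) lower, with a median of 0.22. ATG2A, a lipid-transfer protein, rose from 50.7 ± 5.15 to 301 ± 24.01 CPM (log2 fold change 2.54, SE 0.20, edgeR adjusted p = 8.45e-09). MAP1LC3A, the LC3 gene next of kin to MAP1LC3B, fell from 24.2 ± 3.39 to 2.50 ± 0.417 CPM (log2 fold change -3.31, SE 0.47, edgeR adjusted p = 7.85e-06) and had no count in GIMEN.

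Some of these genes share sequence or position with others, and the counting rules are not given in the sources used here. In the GENCODE release 29 annotation, 34.3% of the 75-base words of CTSD, 31.4% of ATG9A, 16.9% of IDS and 4.18% of MAP1LC3B also occur in another gene. Exons of a gene on the opposite strand overlap 28.5% of the exon bases of CTSA, 28.1% of WIPI1, 22% of SQSTM1, 18.1% of ATG7, 17.1% of BECN1, 16.1% of CLCN7, 15.8% of CTSD and 13% of HEXA. For GABARAPL1 the overlap is 8.05% and for NPC1 5.98%. Without a stated strand rule, reads from such a gene and its antisense partner cannot be told apart where they overlap. The levels of these genes are uncertain for that reason, by an amount that these shares do not give.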

How the data were processed

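Paired-end RNA-seq of total RNA was deposited as raw counts per gene symbol, and per the labels the libraries were made and sequenced by a service provider. The aligner, counter, genome build, annotation and strand setting are not given in the sources used here. The 45 genes, the further lists and the tests were chosen with earlier results of these data known. Counts were fitted with edgeR 4.0.16 (quasi-likelihood test, TMM, R 4.3.3) after filterByExpr (minimum count 10, total 15), on 16 SK-N-AS libraries (15810 genes), 6 GIMEN libraries (13517 genes) or 14 libraries for line comparisons (16246 genes). P-values were Benjamini-Hochberg adjusted over all genes tested. SE is the log2 fold change divided by the square root of F. Displayed CPM differ from fitted changes by at most 0.149 (log2). CPM of every library are given for TFEB, TFE3 and MITF, for the 3 largest rises and falls per comparison (adjusted p under 0.05, mean CPM of at least 10, groups not overlapping) and for genes called in opposite directions. The genes singled out for S2D4 replicate 4 and a few further genes were chosen after their values were seen. Alternatives were other scalings, filters, DESeq2 1.42.0, a replicate block, a term for replicates 3 and 4 of untreated and S1D4 cells, and leaving out each library. The fits were tested on simulated data. One marker gene is not reported here.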

Additional observations from a re-analysis of the deposited data

Results flagged for a closer look

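In 26 of 180 groups of 4 libraries, 1 library lay far from the other 3, where chance gives about 1 in 20. S2D4 replicate 4 was that library in 19 of them, as the highest in 17 and as the lowest in 2. Its high values were, in CPM, TFEB 30.1, LAMP1 401, LAMP2 110.1, CLCN7 523, ATP6V0D1 109, ATP6AP1 345, CTSA 283, CTSD 1059.6, CTSH 39.4, IDS 577, NEU1 143, PSAP 983, NPC2 199, SQSTM1 1559.6, NBR1 261, MAP1LC3B 168 and ATG16L1 149.6. Its low values were ATP6V1H 33.5 and CTSL 51.6 CPM. These genes include transcription factors, hydrolases, membrane proteins and autophagy receptors, so the library departed from its group across roles.

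The other 7 were spread over 6 libraries. In S2D30 replicate 3, CTSK was high at 13.3 CPM and BECN1 at 71.9 CPM. BECN1 was also high in untreated replicate 3, at 64.5 CPM. GAA was low in S2D4 replicate 1, at 234 CPM, and GABARAPL1 was low in S1D4 replicate 2, at 2.78 CPM. ATG9A was high in S1D4 replicate 3, at 76.2 CPM, and ATG5 in S1D4 replicate 1, at 21.1 CPM.

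The 30-day change differed between the lines for 32 genes by edgeR's interaction test, with different doses, schedules, media and serum in the lines. The change in SK-N-AS minus that in GIMEN, on the log2 scale, was TFEB 1.25, TFE3 1.00, LAMP1 0.82, LAMP2 1.95, NPC1 1.88, CLCN7 0.90, ATP6V0D1 0.55, ATP6AP1 0.75, CTSA 1.33, CTSB 0.49, CTSD 1.80, CTSK 2.15, CTSL 1.32, CTSS 5.02, HEXA 0.95, IDS 0.94, NEU1 1.12, GM2A 1.55, NPC2 2.20, LIPA 0.41, SQSTM1 1.20, NBR1 0.94, MAP1LC3B 0.83, GABARAPL1 2.11, BECN1 0.30, WIPI1 2.03, ATG3 1.08 and ATG7 1.10. It was negative for CTSF -1.38, GAA -0.47, GABARAPL2 -0.60 and ULK1 -0.82. CTSS was near 0 counts in GIMEN, and its difference ranged from 3.74 to 5.64 when single libraries were left out.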

How the results depend on the processing

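No called gene changed direction under any alternative run. The calls kept under all of them numbered, against untreated SK-N-AS, 15 of 20 for S1D4, then 29 of 34 for S2D4, then 30 of 32 for S2D30. They were 25 of 32 from S1D4 to S2D4, 27 of 31 from S2D4 to S2D30, 29 of 34 in GIMEN, 29 of 32 for the line difference and 28 of 38 between the untreated lines. Upper-quartile scaling gave a median log2 fold change of 0.55 from S2D4 to S2D30, and a fit of both groups alone gave 0.32 in S1D4. Upper-quartile scaling also moved the median of all genes between the untreated lines to 0.203, with 14 higher and 18 lower of the 45. When single libraries were left out, the median ran from 0.2556 to 0.33 in S1D4, from 0.554 to 0.7951 in S2D4, from 1.111 to 1.242 in S2D30, from 0.3505 to 0.5349 from S1D4 to S2D4, from 0.4458 to 0.5905 from S2D4 to S2D30 and from 0.7267 to 0.8563 for the line difference. The genes called lower numbered 2 to 5 in S1D4 and 0 to 2 in S2D30. Same-numbered libraries of untreated and S1D4 cells deviated together in part (correlation 0.274, 0.266, 0.0436 and 0.293), but so did others within replicates 1 and 2 and within 3 and 4. Over all SK-N-AS pairs of groups the same-number correlations ran from -0.101 to 0.293 and in GIMEN from -0.0199 to 0.0134, not every library correlated best with its own number, and the numbers were not taken as pairs. A term for replicates 3 and 4 of untreated and S1D4 cells ended the calls of MITF, CTSK and ULK1 in S2D4, GUSB and GABARAPL2 in S2D30 and CTSH and SQSTM1 from S1D4 to S2D4. With the replicate block the higher and lower counts were 16 and 2 in S1D4, 30 and 3 in S2D4, 31 and 0 in S2D30, 24 and 5 and 27 and 3 in the steps, 27 and 6 in GIMEN, 28 and 4 for the line difference and 10 and 18 between the untreated lines. In GIMEN, CTSH, CTSS and CTSZ had too few counts to be tested.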
